A study of Mus musculus with 34 samples.

Results

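The 36 genes described here encode working parts of the synapse. On the presynaptic side these are proteins of the synaptic vesicle, the machinery that fuses it with the membrane, and the active zone. On the postsynaptic side they are the scaffold and its kinase and ionotropic glutamate receptors, and adhesion molecules join the 2 sides. The 36 genes were picked by symbol, and each symbol matched a single row among the 55385 genes of the count table. All 36 were among the 17632 genes with enough reads to be tested. The counts come from poly-A RNA of the brain cortex of 34 mice aged 6 months, 16 female and 18 male, in a study of a trisomy 21 mouse model, an Alzheimer's disease model and a JAK inhibitor.

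Tofacitinib, an inhibitor of Janus kinases, was given by mouth at 15 mg/kg each day for a month, and sham mice received 0.5% methylcellulose, the vehicle, on the same schedule. The groups were 5xFAD-Dp16 mice given tofacitinib (n = 4) or sham (n = 3), 5xFAD mice given tofacitinib (n = 5) or sham (n = 4), Dp16 mice given tofacitinib (n = 5) or sham (n = 3), and wild-type C57BL/6J mice given tofacitinib (n = 5) or sham (n = 5). Dp16 mice carry an extra copy of the distal part of mouse chromosome 16 that corresponds to human chromosome 21. 5xFAD mice carry human transgenes bearing mutations of familial Alzheimer's disease, under Thy1 regulatory sequences, which act mainly in neurons, and 5xFAD-Dp16 mice carry both the duplication and the transgenes. The series' design text counts 6 5xFAD mice given tofacitinib and 4 5xFAD-Dp16 sham mice, of which 5 and 3 were analysed here. No sequencing batch or date is in the labels used here.

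A synaptic vesicle filled with transmitter docks at the active zone, and SNARE proteins on the vesicle and on the plasma membrane zip together to fuse it when calcium binds a synaptotagmin. The glutamate released binds AMPA-type receptors, which carry most of the fast current, and NMDA-type receptors, which admit calcium and set plasticity in motion. Scaffold proteins of the postsynaptic density hold these receptors in place, and neurexins reach across the cleft to neuroligins. In cortex these genes are transcribed mostly by excitatory neurons. In RNA from a whole piece of tissue, fewer cells of a type and less RNA per cell cannot be told apart.

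Library totals ran from 16029841 to 21388650 reads assigned to genes. RPKM here means reads per kilobase of gene at a common library total, with totals scaled by TMM (the trimmed mean of M values, a correction for composition), so levels can be compared between genes. The genotype labels held in every library for 5xFAD, in which Thy1 was at 760 to 1369 RPKM in the 16 carriers and 439 to 507 RPKM in the 18 non-carriers. Synj1, a gene of the duplicated segment, was at 41.9 to 67.2 RPKM in the 15 carriers of the duplication and 28.2 to 45.9 RPKM in the 19 non-carriers, ranges that overlap. One library, the 5xFAD tofacitinib mouse numbered 2, stood apart from the other 33. Its summed choroid plexus markers reached 1244 RPKM, its oligodendrocyte markers 2898 RPKM and its cortical excitatory neuron markers 82.0 RPKM, the last against 164 to 226 RPKM in wild-type sham libraries. Slc17a6, the vesicular glutamate transporter that is more typical of subcortical neurons, was at 24.1 RPKM there, against 3.95 to 6.46 RPKM in wild-type sham libraries. Values without it are given below beside those it moved most.

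The vesicle proteins were among the most abundant transcripts of the set. Averaged over the 34 libraries, Syp (synaptophysin, an integral vesicle membrane protein) was at 526 RPKM, Slc17a7 (the vesicular glutamate transporter VGLUT1) at 448 RPKM and Rab3a (a small GTPase of the vesicle surface) at 355 RPKM. Syt1 (synaptotagmin, the calcium sensor of fast release) was at 242 RPKM. The synapsins, which tether vesicles to one another, were at 203 RPKM for Syn1 and 81.6 RPKM for Syn2. The vesicle glycoproteins Sv2a and Sv2b were at 79.5 and 61.4 RPKM. Syn1 varied most of these between libraries, with a coefficient of variation of 20.2%, and Rab3a least, at 8.21%.

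The fusion machinery held the gene with the highest level of the 36. Snap25, a plasma membrane SNARE, averaged 1651 RPKM, and its vesicle partner Vamp2 averaged 476 RPKM. Stx1a, the other plasma membrane SNARE, was at 147 RPKM. The complexins, small proteins that clamp and then promote fusion by the SNARE complex, were at similar levels, 376 RPKM for Cplx2 and 365 RPKM for Cplx1. Nsf, the ATPase that takes used SNARE complexes apart, was at 176 RPKM. The active zone genes were lower: Rims1 at 57.3 RPKM, Bsn (bassoon) at 33.4 RPKM, Unc13a (the vesicle priming factor Munc13-1) at 25.1 RPKM and Pclo (piccolo) at 10.7 RPKM.

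On the postsynaptic side, the 2 CaMKII subunits, kinases that calcium entry activates, led with 814 RPKM for Camk2a and 171 RPKM for Camk2b. The scaffold genes spanned a wide range: Shank1 was at 120 RPKM, Dlg4 (PSD-95) at 96.5 RPKM, Shank3 at 39.2 RPKM, Shank2 at 26.3 RPKM and Homer1 at 15.2 RPKM. Homer1, which also makes a short activity-induced transcript, was the most variable of the 36 genes, with a coefficient of variation of 25.4%. Among the NMDA receptor subunits, the obligatory subunit Grin1 was at 93.8 RPKM and the regulatory subunits Grin2b and Grin2a at 12.9 and 8.98 RPKM. The AMPA receptor subunits were at 65.2 RPKM for Gria1, 27.2 RPKM for Gria3 and 26.6 RPKM for Gria2. Of the adhesion genes, the presynaptic neurexins Nrxn2 and Nrxn3 were at 52.2 and 16.8 RPKM, and the postsynaptic neuroligins Nlgn2 (found mainly at inhibitory synapses), Nlgn1 and Nlgn3 at 41.1, 5.70 and 5.57 RPKM.

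The levels thus ran from 5.57 RPKM for Nlgn3 to 1651 RPKM for Snap25, and 24 of the 36 genes lay above the 90th percentile of tested genes. Gene lengths in the count table ran from 1788 bases for Rab3a to 24787 bases for Grin2b, with a median of 5763 bases, against 3058.5 bases over all tested genes. In the GENCODE M21 annotation of GRCm38 the 36 genes lie on 17 chromosomes, 6 of them on chromosome 11 and 4 on the X. Grin2a is the 1 member on chromosome 16 (9567898 to 9995560, minus strand), outside the duplicated distal part. Exons of 3 members share over 10% of their bases with another gene: 41.2% of Nlgn3 with Gm21986 on the same strand, 16.8% of Syp with Gm14703 and 13.5% of Grin1 with Grin1os on the opposite strand. The strand setting of the counting is not given in the sources used here. Whether reads in the shared bases of Syp and Grin1 were counted for these genes is therefore not known. For Nlgn3 the overlap holds whatever the setting, and its level may miss reads in the shared bases.

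**Figure D1:**
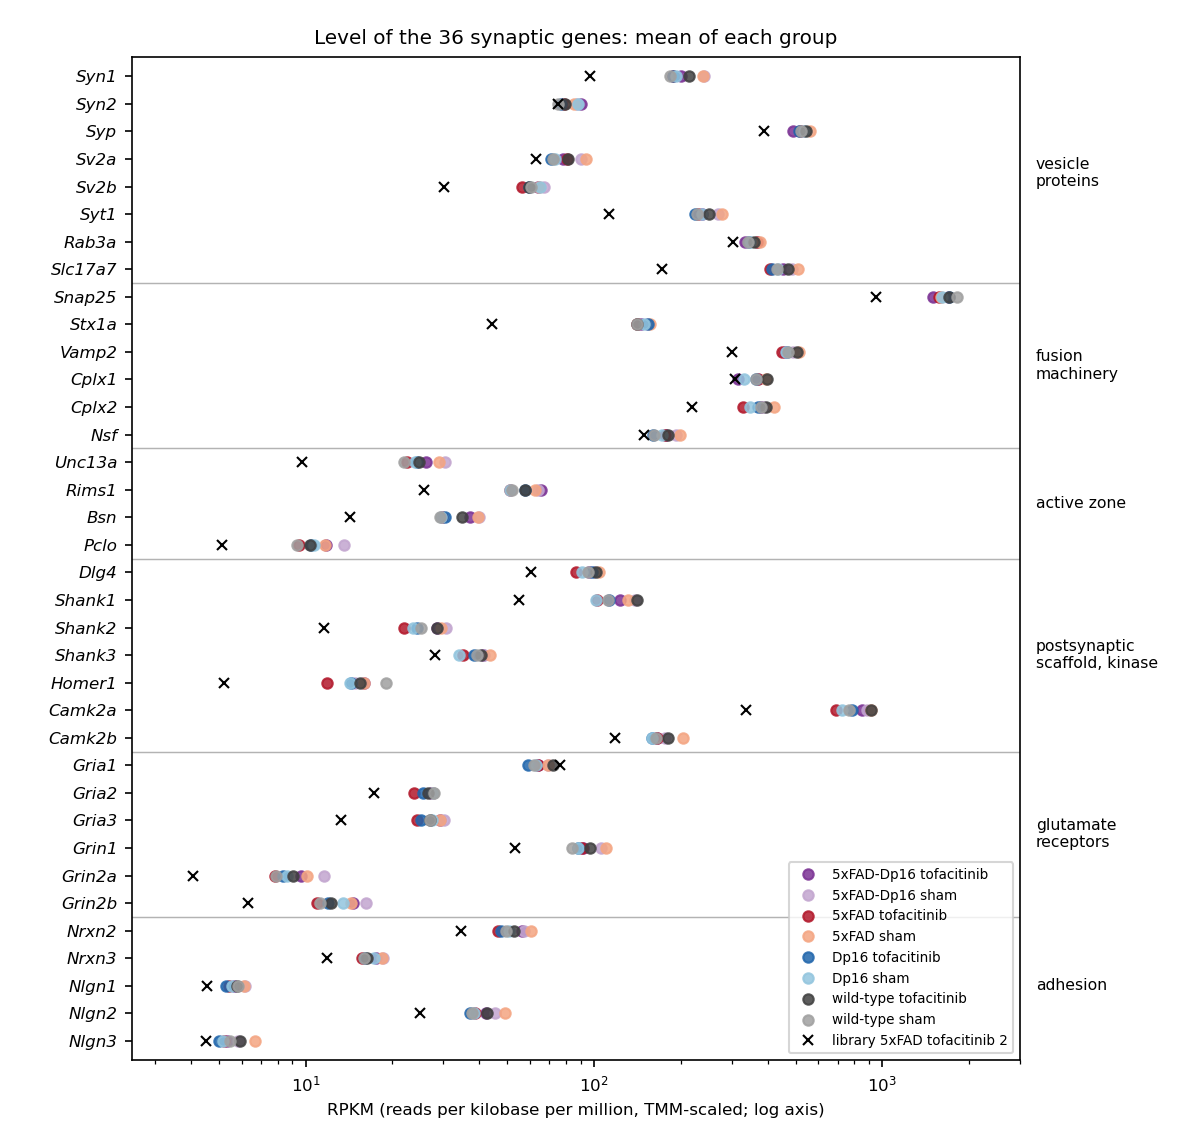
Mean RPKM (log axis) of each of the 36 genes in each of the 8 groups, by role; crosses mark the single library 5xFAD tofacitinib 2. Group means of a gene lie close together, while the crosses lie to the left of them for most genes, as for Stx1a at 44.2 RPKM.

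Promoter sequence (250 bases before to 50 bases after the start, RefSeq, GRCm38.p6) was at hand for 25 of the 36 genes, in 37 windows; Camk2a, Gria1, Gria3, Grin2a, Grin2b, Nlgn3, Nrxn2, Shank1, Shank2, Snap25 and Vamp2 were not matched. Many neuronal genes are silenced outside the nervous system by REST, which binds the RE1 element, and the windows of the 4 members that hold part of that element are shown. The motif CAGCACC, then any 2 bases, then GG was found on either strand in the windows of Syn1, Unc13a and Nlgn1, and in 0.636% of all 32851 promoter windows. The motif GCACC, any 2 bases, GG, any base, CAG, which can overlap it, was found in those of Syn1 and Gria2, and in 0.247% of all windows. The cAMP response element TGACGTCA was found in that of Syn1 and in 1.79% of all windows. The windows lie at chrX:20920869-20921168, minus strand (Syn1), chr8:71671708-71672007, minus strand (Unc13a), chr3:26153937-26154236, minus strand (Nlgn1) and chr3:80802786-80803085, minus strand (Gria2). Capitals mark the matches, which are letters in a window and not measured binding.
Syn1: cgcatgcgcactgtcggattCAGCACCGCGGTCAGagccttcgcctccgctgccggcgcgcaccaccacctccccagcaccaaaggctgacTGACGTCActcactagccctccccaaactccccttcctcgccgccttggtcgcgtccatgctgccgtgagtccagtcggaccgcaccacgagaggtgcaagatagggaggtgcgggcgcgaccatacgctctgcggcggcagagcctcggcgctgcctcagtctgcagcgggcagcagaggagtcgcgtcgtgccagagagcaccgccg
Unc13a: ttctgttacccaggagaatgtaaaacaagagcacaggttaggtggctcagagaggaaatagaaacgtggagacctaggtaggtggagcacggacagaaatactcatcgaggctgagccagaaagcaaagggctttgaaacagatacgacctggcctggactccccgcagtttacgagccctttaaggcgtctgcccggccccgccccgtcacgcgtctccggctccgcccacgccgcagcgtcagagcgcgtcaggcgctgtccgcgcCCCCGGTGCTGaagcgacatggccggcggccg
Nlgn1: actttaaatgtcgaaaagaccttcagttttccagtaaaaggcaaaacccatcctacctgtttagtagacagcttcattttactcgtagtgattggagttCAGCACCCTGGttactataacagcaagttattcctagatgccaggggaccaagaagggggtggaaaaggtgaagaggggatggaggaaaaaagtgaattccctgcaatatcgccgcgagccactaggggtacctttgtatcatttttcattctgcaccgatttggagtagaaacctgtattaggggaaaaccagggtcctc
Gria2: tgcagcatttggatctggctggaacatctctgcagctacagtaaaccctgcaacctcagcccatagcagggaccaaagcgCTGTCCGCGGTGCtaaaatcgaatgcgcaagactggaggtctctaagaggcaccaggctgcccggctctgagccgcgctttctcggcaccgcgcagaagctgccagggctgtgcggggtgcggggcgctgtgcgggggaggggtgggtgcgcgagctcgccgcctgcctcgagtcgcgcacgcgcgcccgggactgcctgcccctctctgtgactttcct
In Syn1 the 2 RE1 motifs overlap and span 230 to 216 bases before the start, and the cAMP response element lies 159 to 152 bases before it. The match in Unc13a lies 18 to 28 bases after the start, that in Nlgn1 151 to 141 bases before it, and that in Gria2 170 to 158 bases before it. For Nlgn1 this start lies inside the gene, which GENCODE M21 places at 25426215 to 26332460 on the minus strand of chromosome 3. It is not the annotated 5' end of Nlgn1. The GC box GGGCGG was in 18 of the 37 member windows and in 35.7% of all windows.

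The 36 genes varied together from library to library. On log2 RPKM centred by gene, the first principal component held 70.4% of their variance with all 34 libraries and gave all 36 genes the same sign. Leaving out 5xFAD tofacitinib 2, it held 62.5%, and 34 of the 36 genes had the same sign. The same share was not computed for other genes, so covariation cannot be called particular to these 36. A library's position can be given as the median over the 36 genes of its log2 RPKM minus the wild-type sham mean. That median was 0.16 to 0.24 in 5xFAD-Dp16 sham libraries and 0.18 to 0.27 in 5xFAD sham libraries, against -0.13 to 0.16 in wild-type sham libraries. It was -0.05 to 0.25 in 5xFAD-Dp16 tofacitinib libraries, -0.22 to 0.12 in Dp16 tofacitinib libraries, -0.07 to 0.14 in Dp16 sham libraries and -0.21 to 0.27 in wild-type tofacitinib libraries. In the 5xFAD tofacitinib group it was -0.74 in library 2 and -0.005 to 0.32 in the other 4. Libraries also differed in a trend on gene length over all tested genes. Spearman's rho between gene length and a library's log2 difference from the wild-type sham mean describes it. That rho was 0.19 to 0.33 in 5xFAD-Dp16 sham and 0.23 to 0.36 in 5xFAD sham libraries. It was -0.21 to 0.33 in wild-type sham libraries and -0.20 in 5xFAD tofacitinib 2. The part of this trend was not tested.

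**Figure D2:**
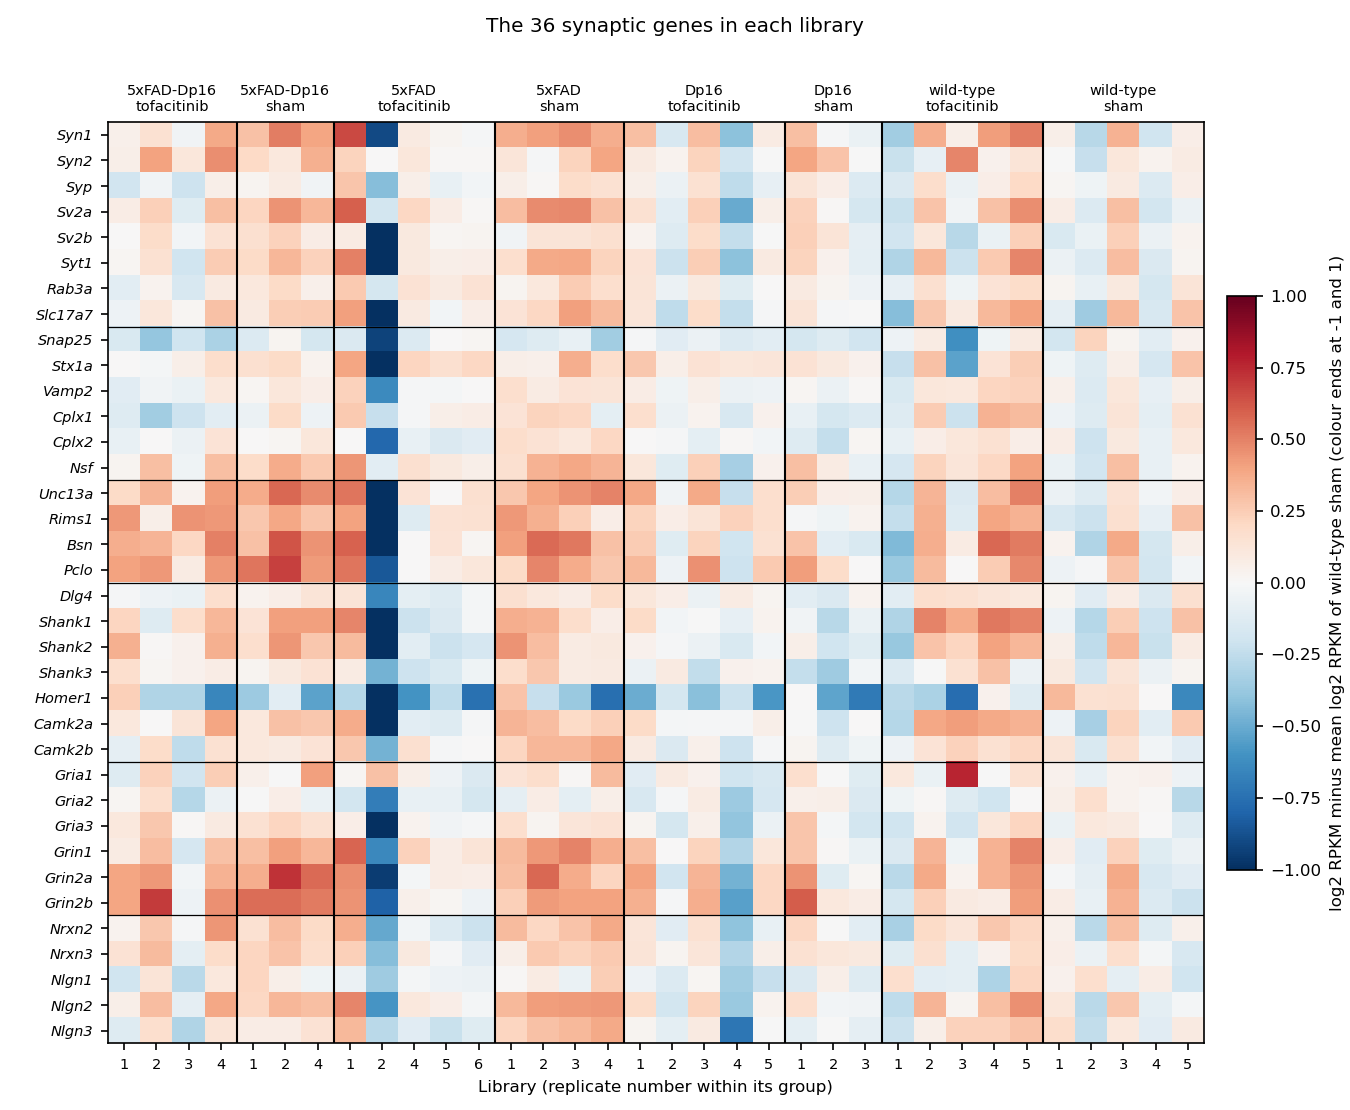
Each cell is the log2 RPKM of 1 gene in 1 library minus the mean log2 RPKM of wild-type sham, with libraries in columns by group and genes in rows by role. Column 2 of 5xFAD tofacitinib is the darkest blue, while most rows of the sham columns of 5xFAD-Dp16 and 5xFAD are red.

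The library 5xFAD tofacitinib 2 held the lowest value of all 34 for 29 of the 36 genes; it held the lowest value for 13.2% of all tested genes. It lay below the other 4 libraries of its group for 35 of the 36 genes, as it did for 30.9% of tested genes. Stx1a was at 44.2 RPKM in it, against 156 to 184 RPKM in the other 4, a log2 difference of -1.90. Slc17a7 was at 172 RPKM, against 415 to 561 RPKM (-1.43), Unc13a at 9.69 RPKM, against 21.97 to 31.9 RPKM (-1.39), and Homer1 at 5.23 RPKM, against 11.1 to 15.6 RPKM (-1.35). The size differed between genes: Syn2 differed by -0.09 and Nlgn3 by -0.24. Gria1 was the exception, at 76.0 RPKM in this library against 55.9 to 64.4 RPKM in the other 4. The highest Gria1 value of the series, 105 RPKM, was in wild-type tofacitinib 3, where hippocampus markers summed to 84.8 RPKM, and they summed to 56.0 RPKM in 5xFAD tofacitinib 2, against 23.7 to 34.6 RPKM in wild-type sham. The part these markers play in the values was not tested.

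Each comparison was tested in a single edgeR quasi-likelihood model over all 34 libraries, with group and sex as terms and Benjamini-Hochberg adjustment over the 17632 genes, and a gene was called at an adjusted p under 0.05. Differences are on the log2 scale, where 1 is a doubling. None of the 36 genes was called in any of the 16 comparisons. For that reason the values below follow the 3 genes with the smallest p in each comparison, and the 8 genes that stood most often among those 3 (Shank3, Cplx2, Shank1, Cplx1, Syn2, Camk2b, Grin2b and Pclo), chosen after their values were seen, are given library by library. The comparisons with wild-type sham share those 5 libraries, and those with wild-type tofacitinib share the other 5.

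In sham-treated mice, 33 of the 36 genes lay above 0 in 5xFAD against wild-type, with a median log2 difference of 0.22; of all tested genes 51.5% lay above 0. Camk2b was at 189, 206, 206 and 214 RPKM in 5xFAD sham cortex, against 179, 147, 183, 161 and 151 RPKM in wild-type sham cortex. Every 5xFAD value exceeded every wild-type one. The log2 difference was 0.31 (SE 0.11) with an edgeR adjusted p of 0.0845. Sv2a, the vesicle glycoprotein, was at 88.7, 99.2, 99.996 and 87.6 RPKM in 5xFAD sham, against 75.5, 65.0, 88.2, 63.1 and 68.9 RPKM in wild-type sham. Only the highest wild-type value reached into the 5xFAD range. The difference was 0.39 (SE 0.15, edgeR adjusted p = 0.104). Grin1 was at 104, 113, 118 and 107 RPKM in 5xFAD sham, against 87.3, 76.8, 97.7, 76.5 and 80.0 RPKM in wild-type sham, with no overlap, a difference of 0.40 (SE 0.16) and an edgeR adjusted p of 0.114.

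By role, all 8 vesicle genes lay above 0 in 5xFAD sham, at a median of 0.20, as did all 4 active zone genes, at 0.36, and all 5 adhesion genes, at 0.29. Bsn had the largest difference of the 36, 0.43 (SE 0.20), and Unc13a was at 26.4, 29.0, 30.0 and 31.0 RPKM in 5xFAD sham against 21.1, 20.1, 24.3, 21.5 and 23.0 RPKM in wild-type sham. The exceptions were Homer1 at -0.23 (SE 0.23), Snap25 at -0.185 (SE 0.13) and Gria2 within 0.01 of 0 (95% interval -0.22 to 0.21). Camk2b, Grin1, Unc13a, Syn1, Nlgn2 and Nlgn3, 16.7% of the 36, had every 5xFAD value above every wild-type value, as did 4.94% of all tested genes. At an unadjusted p under 0.05, edgeR gave 9 of the 36 genes, or 25%, which is near the 24.8% of all tested genes. Adjusted calls covered 0.017% of all genes in edgeR (3 genes); DESeq2 called 0 of the 36 and 8.69% of all genes, and limma-voom with sample weights 10 of the 36 (27.8%) and 14.2% of all genes. With 5xFAD tofacitinib 2 left out, a library of another group that shares the estimate of spread, 17 of the 36 (47.2%) had an unadjusted p under 0.05, against 27.9% of all genes, and edgeR called 2 of the 36 (5.56%) and 5.3% of all genes; these were Camk2b (adjusted p = 0.0452) and Grin1 (adjusted p = 0.0496). Without wild-type sham 3 it called 3 of the 36, Camk2b, Sv2a and Nsf, and 11.2% of all genes.

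Other measures moved with this difference. Longer genes lay higher in the 5xFAD sham libraries: Spearman's rho between the log2 difference and gene length was 0.40 across the tested genes, a description only, since genes are not replicates. When a trend on gene length was removed from each library, the median over the 36 genes was 0.11 and 29 lay above 0. By role the medians with that trend removed were 0.21 for vesicle genes, 0.16 for the fusion machinery and 0.15 for active zone genes. They were 0.11 for adhesion genes, 0.07 for receptor genes and 0.02 for scaffold and kinase genes, so the order of the roles given above did not hold. The difference of Bsn was then 0.18, of Pclo 0.05 (0.33 without that step) and of Grin2b 0.09 (0.37 without it), while Camk2b had 0.24 and Grin1 0.33. Summed cortical excitatory neuron markers were at 207 to 232 RPKM in 5xFAD sham, against 164 to 226 RPKM in wild-type sham, with 11 of 12 above 0 and none called. Oligodendrocyte markers summed to 1235 to 1613 RPKM, against 1513 to 1833 RPKM, and 8 of 10 lay below 0. Choroid plexus markers summed to 7.1 to 8.4 RPKM, against 10.1 to 185 RPKM, and all 8 lay below 0. No marker was at 0 in every library of a group, and the part of these lists and of gene length in the result was not tested.

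**Figure D3:**
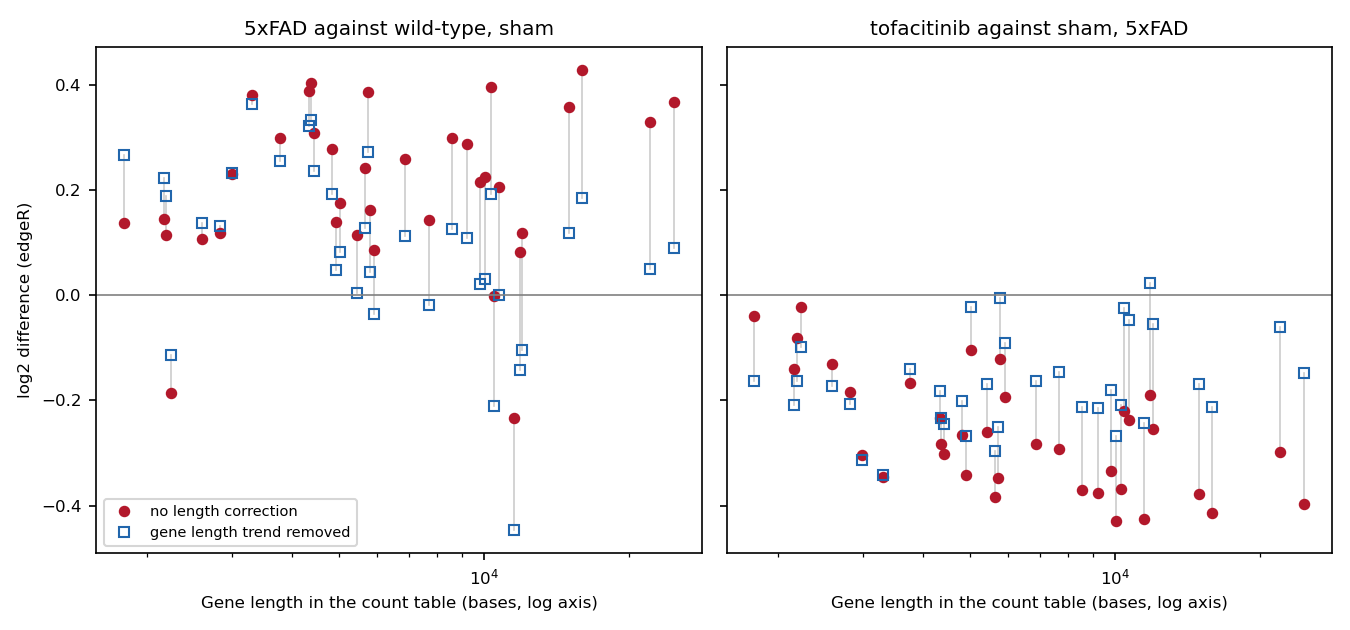
Log2 difference of each of the 36 genes against its length (log axis), for 5xFAD against wild-type in sham mice (left) and for tofacitinib against sham in 5xFAD mice (right); filled circles are without and open squares with the gene length trend removed. The median moves to 0.11 in the left panel and to -0.18 in the right one, and genes longer than the rest shift most.

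5xFAD-Dp16 sham mice, which carry both alleles, had 33 of the 36 genes above 0 against wild-type sham, at a median of 0.21; 50.8% of all tested genes lay above 0. Of the genes above 0, the 5 with the largest differences were the NMDA receptor subunits Grin2a and Grin2b and the active zone genes Pclo, Unc13a and Bsn, at 0.46 to 0.54. Pclo, a giant scaffold of the active zone, was at 13.4, 14.9 and 12.5 RPKM in 5xFAD-Dp16 sham, against 8.92, 9.17, 11.2, 8.17 and 9.10 RPKM in wild-type sham. The ranges did not overlap, and the difference was 0.54 (SE 0.19, edgeR adjusted p = 0.238). Grin2b was at 16.3, 16.3 and 15.9 RPKM in 5xFAD-Dp16 sham, against 11.7, 10.5, 14.2, 10.1 and 9.57 RPKM in wild-type sham. The ranges were again apart, with a difference of 0.51 (SE 0.20, edgeR adjusted p = 0.262). Grin2a, a regulatory NMDA receptor subunit like Grin2b, was at 10.1, 13.0 and 11.6 RPKM in 5xFAD-Dp16 sham, against 7.77, 7.35, 10.2, 7.02 and 7.26 RPKM in wild-type sham; the difference was 0.54 (SE 0.21, edgeR adjusted p = 0.264), and the lowest 5xFAD-Dp16 value was just under the highest wild-type one.

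The 4 active zone genes had a median of 0.47, the 6 receptor genes 0.25 and the 8 vesicle genes 0.23 in this comparison, while the fusion machinery had 0.08 and the scaffold and kinase genes 0.11. Homer1 was again below 0, at -0.41 (SE 0.25). Unc13a, Pclo, Gria3, Grin1, Grin2b and Nrxn3, 16.7% of the 36, had ranges above and apart from wild-type sham, as did 5.76% of tested genes. At an unadjusted p under 0.05 edgeR gave 5 of the 36, or 13.9%, against 14.9% of all genes. Adjusted calls covered 0.363% of all genes; DESeq2 called 0 of the 36, and limma-voom 3 (8.33%) and 2% of all genes. With 5xFAD tofacitinib 2 left out, 9 of the 36 (25%) had an unadjusted p under 0.05, against 16.4% of all genes, at a median of 0.19. With the gene length trend removed the median was 0.13, the difference of Pclo 0.22 and that of Grin2b 0.18. Striatum markers summed to 224 to 533 RPKM in 5xFAD-Dp16 sham, against 422 to 1144 RPKM in wild-type sham, with 10 of 10 below 0, and excitatory neuron markers to 199 to 227 RPKM, against 164 to 226 RPKM. Their part was not tested.

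In Dp16 sham mice, which carry the duplication alone, the 36 genes split by role. All 8 vesicle genes and all 4 active zone genes lay above 0 (medians 0.06 and 0.08, and 0.03 and 0.05 without 5xFAD tofacitinib 2), and all 7 scaffold and kinase genes below it (median -0.09). The smallest differences were 0.005 among vesicle genes and 0.014 among active zone genes, so these counts include values close to 0. Over the 36 the count was 23 above 0, at a median of 0.02 (50.2% of all genes lay above 0). Syn2 was at 98.4, 91.1 and 74.6 RPKM in Dp16 sham, against 74.7, 63.6, 80.7, 76.7 and 79.1 RPKM in wild-type sham. Its highest 2 values were Dp16 ones, but the third fell inside the wild-type range, and the difference was 0.25 (SE 0.13, edgeR adjusted p = 0.7104). Homer1 was at 18.5, 12.9 and 11.3 RPKM in Dp16 sham, against 23.2, 20.6, 20.7, 18.6 and 11.9 RPKM in wild-type sham, a difference of -0.47 (SE 0.25, edgeR adjusted p = 0.733). Shank3 was at 33.1, 30.6 and 38.3 RPKM in Dp16 sham, against 41.8, 34.2, 42.6, 37.4 and 39.9 RPKM in wild-type sham; the ranges overlapped, and the difference was -0.18 (SE 0.10, edgeR adjusted p = 0.759). Adjusted calls covered 0.21% of all genes and 0 of the 36; edgeR at an unadjusted p under 0.05 also gave 0, against 7.27% of all genes, and DESeq2 and limma-voom called 0. Choroid plexus markers summed to 11.8 to 797 RPKM in Dp16 sham, against 10.1 to 185 RPKM in wild-type sham, and all 10 striatum markers lay below 0; their part was not tested. The median over the 36 genes was -0.05 without Dp16 sham 1 and -0.005 without 5xFAD tofacitinib 2, so it had no stable sign.

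**Figure D4:**
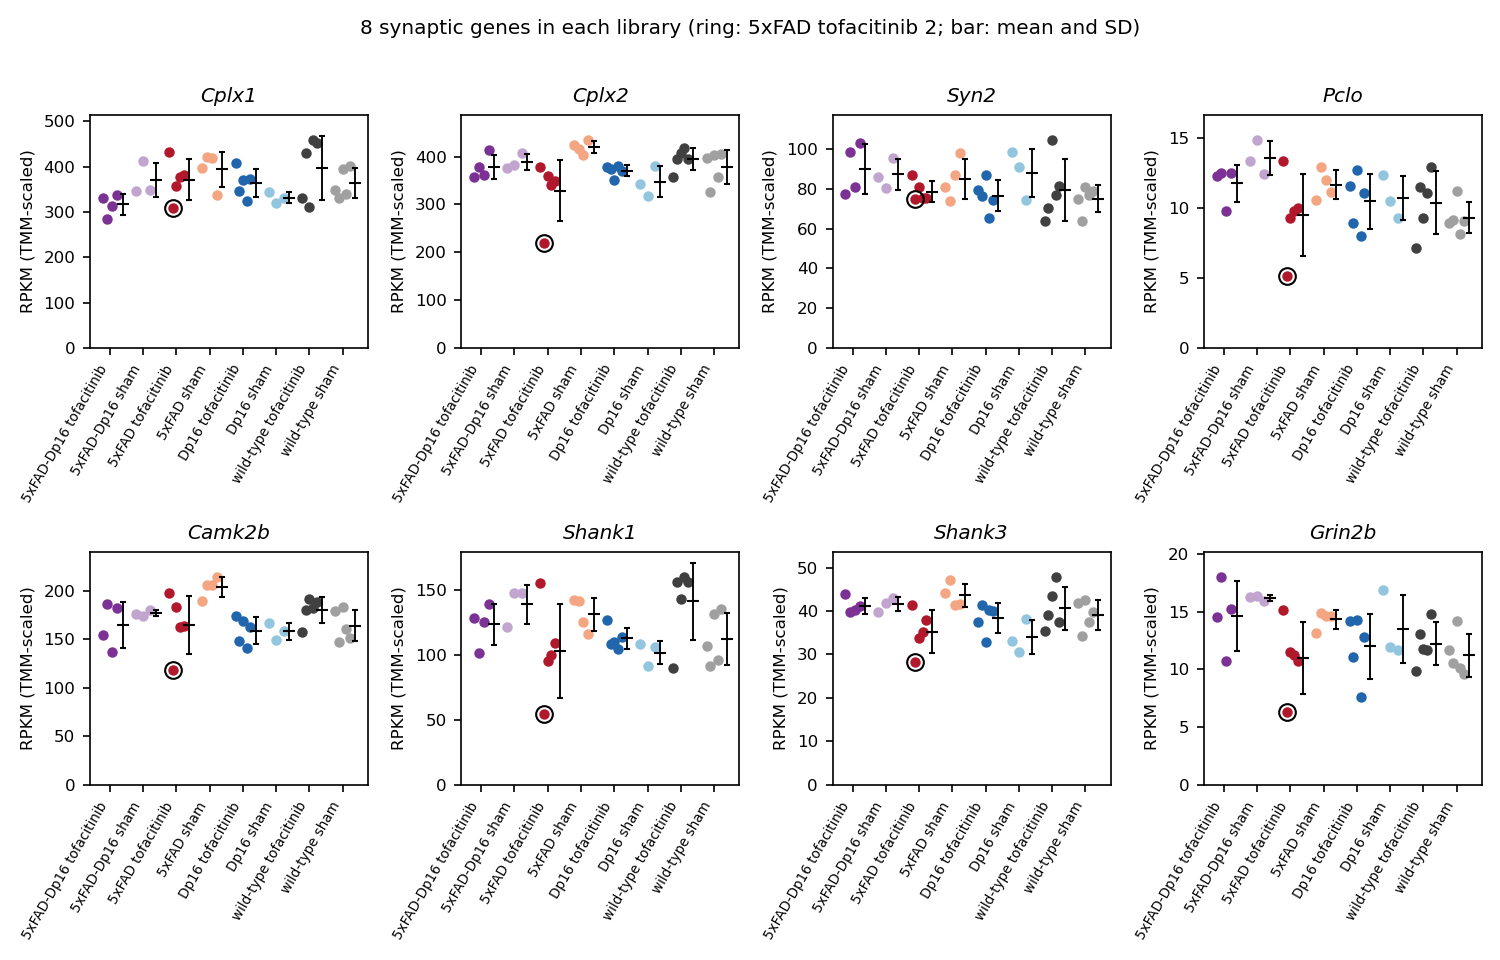
RPKM of 8 genes in every library by group, with the mean and SD of each group beside its points and a ring around 5xFAD tofacitinib 2; axes start at 0. The ringed library is the lowest of the series for 6 of the 8 genes, Syn2 and Cplx1 being the exceptions.

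Under tofacitinib, 5xFAD and Dp16 cortex lay on the lower side of wild-type, and 5xFAD-Dp16 near it. In 5xFAD against wild-type, 35 of the 36 genes lay below 0 at a median of -0.15, with 51.7% of all genes below 0. Shank1, a master scaffold of the postsynaptic density, was at 155, 54.8, 95.2, 99.97 and 109 RPKM in 5xFAD tofacitinib, against 89.6, 156, 143, 160 and 156 RPKM in wild-type tofacitinib. The groups overlapped through 1 high 5xFAD and 1 low wild-type library, and the difference was -0.45 (SE 0.17, edgeR adjusted p = 0.743). Camk2a had a difference of -0.40 (SE 0.15) and Cplx2 of -0.27 (SE 0.09, edgeR adjusted p = 0.668). The 7 scaffold and kinase genes had the lowest median, -0.37, and -0.15 without 5xFAD tofacitinib 2. At an unadjusted p under 0.05 edgeR gave 6 of the 36, 16.7% against 6.39% of all genes, but adjusted calls covered 0.017% of genes and 0 of the 36; DESeq2 called 0 and limma-voom 1, Shank1, and 0.267% of all genes. Without 5xFAD tofacitinib 2 the median was -0.008 and 15 of the 36 genes lay above 0, so most of the direction count rested on that library; Cplx2 then had -0.15, Shank1 -0.29 and Camk2a -0.22. All 10 oligodendrocyte markers (median 0.17), all 10 striatum markers (0.36) and all 8 choroid plexus markers (1.49) lay above 0, and 11 of 12 excitatory neuron markers below it (-0.19). Without that library the medians were -0.06, 0.46, -0.19 and 0.05. Their part was not tested.

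In Dp16 against wild-type under tofacitinib, 31 of the 36 genes lay below 0 at a median of -0.12 (50.6% of all genes lay below 0). Gria1 had a difference of -0.29 (SE 0.12, edgeR adjusted p = 0.530), with a mean of 59.2 ± 5.35 RPKM (SD, n = 5) in Dp16 and 72.3 ± 18.7 RPKM (SD, n = 5) in wild-type, where 1 library held 105 RPKM. Shank1 was at 126, 108, 110, 105 and 113 RPKM in Dp16 tofacitinib, against the wild-type values above, a difference of -0.30 (SE 0.17), and Nlgn3 had a difference of -0.25 (SE 0.13). All 10 hippocampus markers (median -0.75) and 11 of 12 excitatory neuron markers (-0.19) lay below 0, and all 10 striatum markers above it (0.26). The part of these markers was not tested. The hippocampus difference rested on wild-type tofacitinib 3, the library with 105 RPKM of Gria1. Relative to the wild-type sham mean, its hippocampus median was 2.66, against -0.04 to 0.02 in the other wild-type tofacitinib libraries. Dp16 tofacitinib libraries had -0.06 to 0.44. Adjusted calls covered 0.25% of all genes. In 5xFAD-Dp16 against wild-type, 16 of the 36 lay above 0, at a median of -0.03 (49.1% of all genes lay above 0). Cplx1 was at 331, 284, 313 and 337 RPKM in 5xFAD-Dp16 tofacitinib, against 331, 431, 311, 459 and 452 RPKM in wild-type tofacitinib. The wild-type values fell in a low pair and a high trio, and the low pair lay inside the 5xFAD-Dp16 range; the difference was -0.32 (SE 0.11, edgeR adjusted p = 0.333). Syn2 had a difference of 0.18 (SE 0.12) and Syp of -0.15 (SE 0.10). Adjusted calls covered 0.306% of all genes. In each of these 2 comparisons edgeR gave 1 of the 36 genes at an unadjusted p under 0.05 (2.78%), against 8.5% of all genes in the Dp16 comparison and 6.41% in the 5xFAD-Dp16 one; DESeq2 called 0 in both, and limma-voom 0 in the Dp16 comparison and 1, Cplx1, in the other (1.11% of all genes). Leaving out wild-type tofacitinib 5 turned the 5xFAD-Dp16 median to 0.03.

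Tofacitinib was compared with sham within each genotype to ask what the drug did to these genes. In 5xFAD mice all 36 genes lay below 0, at a median of -0.28, while 47.7% of all tested genes did. Cplx2 was at 378, 219, 359, 340 and 349 RPKM in 5xFAD tofacitinib, against 425, 417, 405 and 435 RPKM in 5xFAD sham. Every treated value was below every sham value, with library 2 far below the rest, and the difference was -0.34 (SE 0.09, edgeR adjusted p = 0.320). Shank3, the scaffold gene lost in Phelan-McDermid syndrome, was at 41.3, 28.2, 33.8, 35.1 and 37.9 RPKM in 5xFAD tofacitinib, against 44.2, 47.1, 41.4 and 41.6 RPKM in 5xFAD sham. The highest treated value lay just under the lowest sham value, and the difference was -0.29 (SE 0.09, edgeR adjusted p = 0.320). Camk2b was at 198, 118, 183, 163 and 164 RPKM in 5xFAD tofacitinib, against the sham values of 189 to 214 RPKM; 1 treated library reached into the sham range, and the difference was -0.30 (SE 0.11, edgeR adjusted p = 0.320). Cplx2 and Shank3 were the 2 genes of the 36 (5.56%) whose treated range lay below and apart from sham, against 1.65% of tested genes.

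The adhesion genes had a median of -0.35 in this comparison, the scaffold and kinase genes -0.34, the active zone genes -0.33 and the fusion machinery -0.15. Without library 2 these medians were -0.23, -0.22, -0.16 and -0.05. At an unadjusted p under 0.05 edgeR gave 13 of the 36, or 36.1%, against 14.8% of all genes. Adjusted calls covered 0% of all genes in edgeR and in DESeq2, and limma-voom called 9 of the 36 and 5.61% of all genes. In the 33 other libraries, 5xFAD tofacitinib 2 being left out, the median was -0.15, 33 genes lay below 0, and 6 of the 36 (16.7%) had an unadjusted p under 0.05, against 6.72% of all genes; Cplx2 then had -0.24, Shank3 -0.23 and Camk2b -0.21. Without 5xFAD tofacitinib 1 the median was -0.40 and edgeR called 9 of the 36 genes, or 25%, against 2% of all genes. With the gene length trend removed the median was -0.18, and with that trend and library 2 both removed it was -0.08, with 6 genes above 0. With the trend alone removed, the roles lay closer together. The medians were -0.21 for adhesion genes, -0.24 for scaffold and kinase genes, -0.19 for active zone genes and -0.19 for the fusion machinery. Excitatory neuron markers summed to 82.0 to 247 RPKM in 5xFAD tofacitinib, against 207 to 232 RPKM in 5xFAD sham, and all 12 lay below 0 (median -0.33; -0.15 without library 2). Oligodendrocyte markers summed to 1385 to 2898 RPKM, against 1235 to 1613 RPKM, with all 10 above 0, and choroid plexus markers to 4.3 to 1244 RPKM, against 7.1 to 8.4 RPKM. Their part was not tested.

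**Figure D5:**
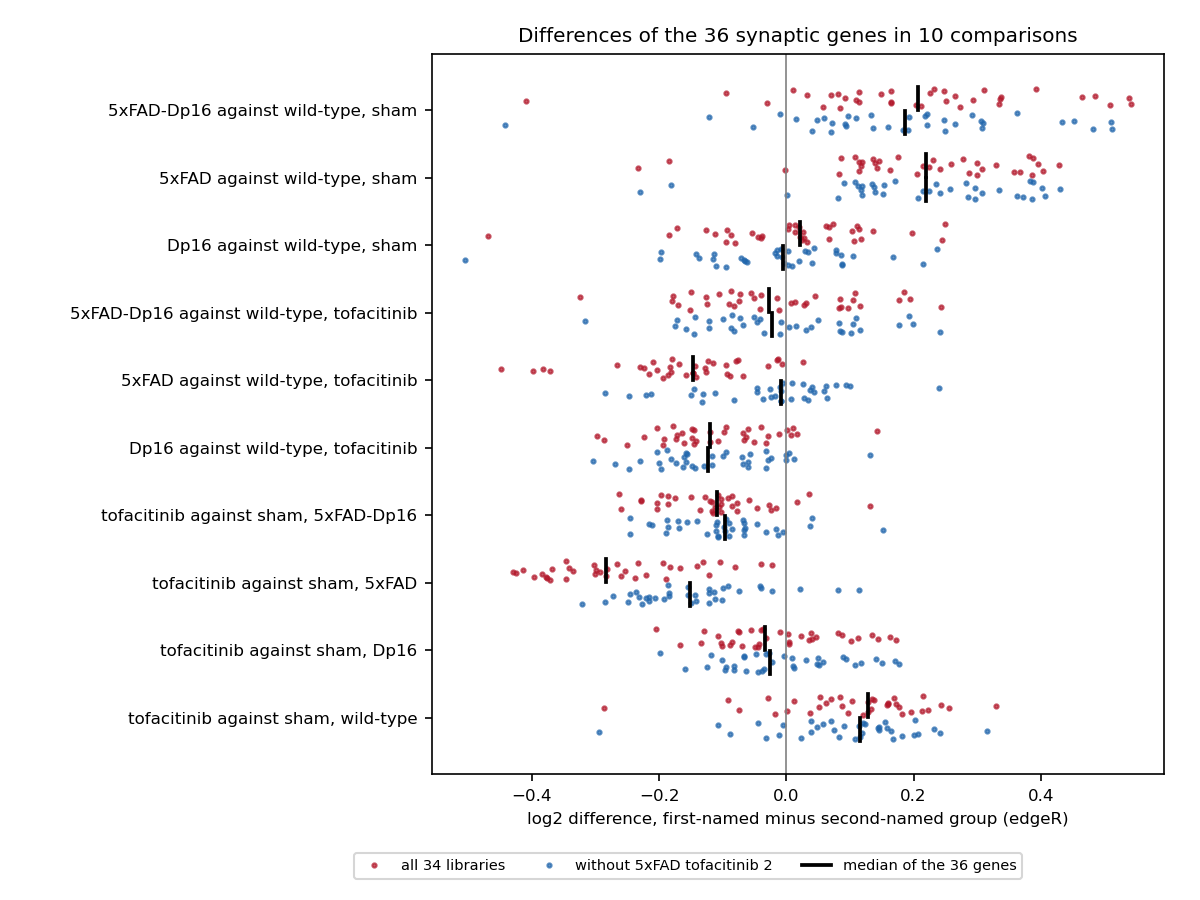
Log2 differences of the 36 genes (points) and their median (black bars) in 10 comparisons, first-named minus second-named group, with all 34 libraries (red) and without 5xFAD tofacitinib 2 (blue). The sham comparisons of 5xFAD-Dp16 and 5xFAD lie to the right of 0, at medians of 0.21 and 0.22, and tofacitinib in 5xFAD lies to the left, at -0.28 with and -0.15 without that library.

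In wild-type mice the drug comparison leaned to the other side, with 31 of the 36 genes above 0 at a median of 0.13 (52.2% of all genes lay above 0). Shank1 was at 89.6, 156, 143, 160 and 156 RPKM in wild-type tofacitinib, against 107, 90.9, 131, 95.9 and 135 RPKM in wild-type sham. All but 1 treated value exceeded every sham value, and the exception was the lowest of both groups. The difference was 0.33 (SE 0.17, edgeR adjusted p = 0.687), followed by Camk2a at 0.26 (SE 0.15) and Gria1 at 0.22 (SE 0.12). All 10 striatum markers (median -0.70) and 8 of 10 oligodendrocyte markers (-0.11) lay below 0. All 10 hippocampus markers (0.88) and 9 of 10 astrocyte markers (0.16) lay above it. The part of these markers was not tested. Relative to the wild-type sham mean, the hippocampus median was 2.66 in wild-type tofacitinib 3. It was -0.04 to 0.02 in the other treated libraries and -0.29 to 0.26 in sham. Gria1 was at 105 RPKM in wild-type tofacitinib 3. It was at 59.2 to 68.9 RPKM in the other treated libraries and 58.8 to 63.9 RPKM in sham. In 5xFAD-Dp16 mice 33 of the 36 genes lay below 0 at a median of -0.11 (50% of all genes lay below 0). There, all 10 striatum markers (median 0.28) and all 8 choroid plexus markers (0.94) lay above 0. Below it lay 8 of 10 hippocampus markers (-0.89) and 9 of 12 excitatory neuron markers (-0.12). Their part was not tested. Cplx1 was at 331, 284, 313 and 337 RPKM in 5xFAD-Dp16 tofacitinib, against 347, 413 and 349 RPKM in 5xFAD-Dp16 sham, with a difference of -0.23 (SE 0.12, edgeR adjusted p = 0.999). It was the 1 gene of the 36 whose ranges did not overlap there (3.56% of all genes lay below and apart from sham). Grin2b was at 14.6, 18.02, 10.7 and 15.2 RPKM there, against 16.3, 16.3 and 15.9 RPKM in sham, so the treated values spread to both sides. In Dp16 mice 16 of the 36 lay above 0 at a median of -0.03 (51.1% of all genes lay above 0), with all 7 scaffold and kinase genes above 0 and all 8 vesicle genes below it; this comparison shares its Dp16 sham libraries with that of Dp16 against wild-type sham. Syn2 was at 79.5, 76.6, 87.1, 65.3 and 74.6 RPKM in Dp16 tofacitinib, against 98.4, 91.1 and 74.6 RPKM in Dp16 sham, a difference of -0.20 (SE 0.13). Rims1 was the 1 gene of the 36 with treated values (53.7 to 60.2 RPKM) above and apart from sham (49.9 to 52.7 RPKM), against 1.46% of all genes. The median over the 36 genes was 0.06 without Dp16 sham 1. The scaffold and vesicle differences came as near to 0 as 0.004 and -0.009. Between these Dp16 groups all 10 striatum markers (median 0.41) and 9 of 10 oligodendrocyte markers (0.15) lay above 0. Below it lay all 8 choroid plexus markers (-1.80) and 9 of 10 hippocampus markers (-0.28). Their part was not tested.

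No gene of the whole table passed the adjusted threshold of edgeR in these 3 drug comparisons (0% of all genes), and none of the 36 had an unadjusted p under 0.05 in them, against 7.3% of all genes in wild-type, 1.92% in 5xFAD-Dp16 and 2.05% in Dp16; DESeq2 and limma-voom called 0 of the 36. Averaged over the 4 genotypes, tofacitinib against sham had 35 of the 36 genes below 0, at a median of -0.07 (47% of all genes lay below 0), and -0.04 without 5xFAD tofacitinib 2. In this average all 12 excitatory neuron markers lay below 0 (median -0.10, and -0.05 without that library). Above it lay 9 of 10 astrocyte markers (0.06). With the gene length trend removed, the active zone median went from -0.08 to -0.03 and the receptor median from -0.11 to -0.07. The vesicle median stayed at -0.08 and the fusion median at -0.05. The part of markers and gene length was not tested. Adjusted calls covered 0% of all genes, and none of the 36 had an unadjusted p under 0.05 (3.36% of all genes did). The 95% interval of Gria2, the gene with the smallest p, was -0.22 to 0.01 around -0.10 (edgeR adjusted p = 0.935). Within genotypes the median SE (log2) of the 36 genes was 0.16 in 5xFAD-Dp16, 0.14 in 5xFAD, 0.15 in Dp16 and 0.13 in wild-type. That is the error of a single gene and not of the median over the 36 genes, which vary together.

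Pooling mice by allele narrowed the errors. Between the 16 5xFAD carriers and the 18 non-carriers, averaged over the other allele and treatment, 30 of the 36 genes lay above 0 at a median of 0.09 (50.7% of all genes lay above 0). Sv2a had a difference of 0.21 (SE 0.08, edgeR adjusted p = 0.147), Nsf of 0.15 (SE 0.06) and Bsn of 0.23 (SE 0.10). None of the 36 was called, against 0.42% of all genes; at an unadjusted p under 0.05 edgeR gave 4 of the 36, or 11.1%, against 20.3% of all genes, and DESeq2 and limma-voom called 0. Without 5xFAD tofacitinib 2 the median was 0.12 with 34 genes above 0, and 18 of the 36 (50%) had an unadjusted p under 0.05, against 26.3% of all genes; Bsn then had 0.28 (edgeR adjusted p = 0.063) and Sv2a 0.23 (edgeR adjusted p = 0.071). With the gene length trend removed the median was 0.03 and 23 lay above 0.

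Between the 15 carriers of the duplication and the 19 non-carriers the 36 genes lay on both sides of 0, 17 above it, at a median of -0.002 (51.3% of all genes lay above 0). Cplx1 had a difference of -0.14 (95% interval -0.26 to -0.02, edgeR adjusted p = 0.260), while Pclo at 0.18 (SE 0.10) and Grin2b at 0.18 (SE 0.10) lay on the other side. All 4 active zone genes lay above 0 (median 0.12) and 1 of the 6 fusion genes did (median -0.02); without 5xFAD tofacitinib 2, a non-carrier, these medians were 0.05 and -0.05. All 10 striatum markers (median -0.59) and 8 of 10 oligodendrocyte markers (-0.17; -0.08 without that library) lay below 0, and their part was not tested. Adjusted calls covered 2.14% of all genes and 0 of the 36; edgeR gave 1 of the 36 at an unadjusted p under 0.05 against 13.7% of all genes, DESeq2 called 0, and limma-voom called 1, Cplx1, and 6.6% of all genes. Without that library the median over the 36 was -0.04 with 8 genes above 0.

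The interaction terms ask whether 1 factor's difference depends on another. For 5xFAD and tofacitinib, 35 of the 36 genes lay below 0 (50% of all genes did), at a median of -0.26, meaning that the drug difference was lower in 5xFAD carriers than in non-carriers by that amount. Cplx2 had -0.28 (SE 0.10), Shank3 -0.27 (SE 0.10) and Dlg4, the PSD-95 gene, -0.27 (SE 0.10), each with an edgeR adjusted p of 0.331. Adjusted calls covered 0% of all genes in edgeR; at an unadjusted p under 0.05 it gave 9 of the 36 (25%), against 14.5% of all genes. DESeq2 called 0 of the 36 and limma-voom 18 (50%), with 19.9% of all genes. Without 5xFAD tofacitinib 2 the median was -0.20 with 31 genes below 0 and, for Cplx2, -0.21 (edgeR adjusted p = 0.410). All 12 excitatory neuron markers lay below 0 (median -0.28, and -0.20 without that library). All 8 choroid plexus markers lay above it (2.74, and 2.18 without that library). With the gene length trend removed, the receptor median went from -0.22 to -0.05 and the adhesion median from -0.20 to -0.05. The fusion machinery went from -0.18 to -0.21. The part of markers and gene length was not tested. For the duplication and tofacitinib 19 genes lay above 0 at a median of 0.01 (47.5% of all genes lay above 0), and 11 did at a median of -0.05 without 5xFAD tofacitinib 2; with it, none had an unadjusted p under 0.05 (2.33% of all genes did), and adjusted calls covered 0% of all genes; edgeR, DESeq2 and limma-voom called 0 of the 36.

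For 5xFAD and the duplication, 32 of the 36 genes lay above 0 (51.8% of all genes did) at a median of 0.10, so that the 5xFAD difference was larger in carriers of the duplication by that amount. The scaffold and kinase genes led: all 7 lay above 0, at a median of 0.27, and 0.19 without 5xFAD tofacitinib 2. All 10 striatum markers (median -0.59) and all 10 oligodendrocyte markers (-0.17; -0.04 without that library) lay below 0, and their part was not tested. The 3 Shank genes, whose proteins form the deep layer of the postsynaptic density, had 0.23 (SE 0.10) for Shank3, 0.39 (SE 0.18) for Shank2 and 0.40 (SE 0.18) for Shank1, each with an edgeR adjusted p of 0.995. They were the 3 genes of the 36 (8.33%) with an unadjusted p under 0.05, against 4.35% of all genes. Adjusted calls covered 0.00567% of all genes, a single gene outside the 36, and DESeq2 and limma-voom called 0 of the 36. With 5xFAD tofacitinib 2 left out the median was 0.04 with 23 genes above 0, and Shank1 had 0.32.

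Of the 16 comparisons, 7 gained calls among the 36 genes when genes with low counts were kept in the edgeR model, which then tested 32026 genes. These were 8 in 5xFAD against wild-type sham (5.57% of all genes called), 7 in 5xFAD-Dp16 against wild-type sham (2.73%), 1, Homer1, in Dp16 against wild-type sham (0.493%), 2 in 5xFAD against wild-type under tofacitinib (0.237%), 9 for tofacitinib in 5xFAD (2%), 5 in the 5xFAD carriers (4.24%) and 5 in the interaction of 5xFAD and tofacitinib (2.11%). When the gene length trend and 5xFAD tofacitinib 2 were both left out, edgeR called Camk2b and Grin1 in 5xFAD against wild-type sham, with 4.55% of all genes.

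Synaptic genes outside the 36 are given for comparison, from 4 lists of presynaptic, postsynaptic, receptor and adhesion genes. In 5xFAD sham against wild-type sham, 47 of 56 presynaptic genes, 41 of 45 postsynaptic, 23 of 33 receptor and 44 of 51 adhesion genes lay above 0, at medians of 0.20, 0.20, 0.11 and 0.24, and none was called. In 5xFAD tofacitinib against 5xFAD sham the counts above 0 were 9, 2, 8 and 1 at medians of -0.17, -0.30, -0.15 and -0.23, with none called. Without 5xFAD tofacitinib 2 the medians were -0.12, -0.18, -0.09 and -0.14. Over the 16 comparisons 9 genes of these lists were called: Synj1, Grik1, Ncam2 and Itsn1, which lie in the duplicated segment, and Tenm2, Rab27b, Slc32a1, Grin2c and Grm4, which do not. Synj1, a phosphatase that strips clathrin coats from recycling vesicles, rose in 5xFAD-Dp16 sham by 0.91 (edgeR adjusted p = 2.6e-04) and in Dp16 sham by 0.67 (edgeR adjusted p = 0.020), both against wild-type sham. Grik1, a kainate receptor subunit, rose by 0.77 in 5xFAD-Dp16 sham and by 0.86 in Dp16 sham. Ncam2, an adhesion molecule, rose by 0.51 in 5xFAD-Dp16 sham and by 0.64 in Dp16 sham. Itsn1, an endocytic scaffold, rose by 0.72 in 5xFAD-Dp16 sham. Tenm2, a teneurin, rose by 0.83 in 5xFAD-Dp16 sham (edgeR adjusted p = 0.042). In the carriers of the duplication, against non-carriers, 8 genes of these lists were called, 4 of them outside the segment. Of all tested genes, 2.14% were called there. Rab27b, a GTPase of secretory vesicles, rose by 0.18, while Slc32a1, the vesicular GABA transporter, fell by 0.23. The NMDA receptor subunit Grin2c fell by 0.24 and the metabotropic glutamate receptor Grm4 by 0.32. All 10 striatum markers lay below 0 in this comparison (median -0.59). Of the 10 interneuron markers 7 lay above 0, and Sst (0.19) and Vip (0.49) were called. These values include 5xFAD tofacitinib 2, a non-carrier, and the part of the markers was not tested.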

How the data were processed

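Poly-A RNA of brain cortex was extracted with TRIzol and made into strand-specific libraries, read as paired ends of 150 bases, per the labels' protocols. HISAT2 2.1.0, SAMtools 1.5 and HTSeq 0.6.1 are named in the submitters' processing notes with GRCm38; the strand setting of counting is not given in the sources used here. The deposited counts are whole reads per gene, not normalized. The deposited RPKM values were made by the authors from those counts, and recomputing them gave the same numbers to within rounding (largest relative difference 8.9e-15). They were not used further: RPKM in the text was recomputed with TMM-scaled library totals.

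Differences in counts came from edgeR 4.0.16, run under R 4.3.3 (quasi-likelihood, TMM, group and sex as terms, Benjamini-Hochberg over 17632 genes kept by edgeR's low-count filter). DESeq2 1.42.0, limma-voom 3.58.1 with sample weights, no filter, other size factors, removal of a loess trend on gene length (span 0.5), no sex term and leaving out each library were alternatives. No pair of libraries held identical counts. The steps were tested on simulated data, which recovered, for 5xFAD against wild-type sham, 41 of the 50 genes given a 2-fold change.

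The members and all lists were chosen with earlier results of these data known. All 36 members are named with their level, and differences are given for the 3 with the smallest p in each comparison; other genes named were chosen after their values were seen. The mice of a group are separate samples; nothing in the labels says how they were housed or when they were sequenced.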

Additional observations from a re-analysis of the deposited data

Results flagged for a closer look

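The 8 genes shown by library and the median over the 36 genes were checked in the 6 groups of 4 or 5 libraries for a single library far from the others, 54 checks in all, and 4 stood out; chance gives about 1 in 20. Cplx2 was at 219 RPKM in 5xFAD tofacitinib 2, against 340 to 378 RPKM in the other 4 libraries of its group. Shank1 was at 89.6 RPKM in wild-type tofacitinib 1, against 143 to 160 RPKM in the other 4. Grin2b was at 13.1 RPKM in 5xFAD sham 1, against 14.6 to 14.9 RPKM in the other 3, a small gap in a tight group. Pclo was at 9.83 RPKM in 5xFAD-Dp16 tofacitinib 3, against 12.3 to 12.5 RPKM in the other 3. The cause was not tested in any of these.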

How the results depend on the processing

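Of 2064 values (48 differences of single genes under 43 settings), 2029 kept their direction and their side of the threshold. Another 35 kept their direction and gained a call, and 0 reversed. The 48 were the 3 genes with the smallest p in each comparison, and most settings only left out 1 library. A reversal was therefore unlikely from the start, and its absence says little about stability. The median over the 36 genes did change sign in some comparisons when single libraries were left out. It ran from -0.05 to 0.09 in Dp16 against wild-type sham. In 5xFAD-Dp16 against wild-type under tofacitinib it ran from -0.10 to 0.03. The count of called genes among the 36, 0 in each of the 16 comparisons, moved as follows. With limma-voom it was 10 in 5xFAD against wild-type sham, 3 in 5xFAD-Dp16 against wild-type sham, 1 in 5xFAD and 1 in 5xFAD-Dp16 against wild-type under tofacitinib, 9 for tofacitinib in 5xFAD, 1 in the carriers of the duplication and 18 in the interaction of 5xFAD and tofacitinib. With no low-count filter it was 1 in Dp16, 8 in 5xFAD and 7 in 5xFAD-Dp16 against wild-type sham, 2 in 5xFAD against wild-type under tofacitinib, 9 for tofacitinib in 5xFAD, 5 in the 5xFAD carriers and 5 in the interaction of 5xFAD and tofacitinib. With the gene length trend removed and 5xFAD tofacitinib 2 left out, a setting chosen after seeing the data, it was 2 in 5xFAD against wild-type sham. Leaving out each library in turn gave 0 to 3 there, 3 without wild-type sham 3 and 2 without 5xFAD tofacitinib 2, and 0 to 9 for tofacitinib in 5xFAD, 9 without 5xFAD tofacitinib 1. DESeq2, DESeq2 size factors, the gene length trend removed alone, no sex term and 2 libraries left out together gave 0 in all comparisons. The cause was not tested.

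Over all genes the count in 5xFAD against wild-type sham was 3 in edgeR, 1532 in DESeq2, 2512 in limma-voom, 468 with no sex term, 226 with the gene length trend removed, 929 without 5xFAD tofacitinib 2 and 1981 without wild-type sham 3. Replicate numbers do not pair the mice: same-numbered libraries had a median correlation of 0.014, 9 of 98 pairs were over 0.1, and 5 of 34 libraries correlated best with their own number. The replicate block gave 0 called genes among the 36 in every comparison. In simulated data for 5xFAD against wild-type sham, edgeR recovered 30 of the 50 genes given a 1.5-fold change and 0 of those given a 1.2-fold one. The simulation drew each gene independently, with no shift shared by the genes of a library and no library standing apart. It therefore checks the steps and does not measure the power of the real comparison, where the median of the 36 genes was 0.22 on the log2 scale.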

Other observations

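Library 5xFAD tofacitinib 1 held the highest value of the 34 for 10 of the 36 genes, among them Syn1 at 286 RPKM, Syt1 at 321 RPKM and Grin1 at 125 RPKM, while library 2 of the same group held the lowest for 29. In wild-type tofacitinib 3, Snap25 was at 1179 RPKM, against 1736 to 1922 RPKM in the other 4 libraries of its group, and Stx1a at 96.5 RPKM, against 119 to 171 RPKM. The same library held the highest Gria1 and Camk2a of the series, at 105 and 1014 RPKM. In Dp16 tofacitinib 4 the lowest values of the series were found for Nlgn3 at 3.29 RPKM, Sv2a at 50.5 RPKM, Nsf at 127 RPKM and Gria1 at 53.8 RPKM. These libraries were picked after their values were seen, and the causes were not tested.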
